A study of Mus musculus with 12 samples.

Results

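The precursor of amyloid beta, its relatives and the enzymes that cut it were followed here in cortex RNA of mice with and without P301S tau and with 1 or 2 working copies of Tia1. The group held 9 genes that were listed by symbol, namely the precursor family App, Aplp1 and Aplp2, the alpha-secretase Adam10, the beta-secretase Bace1, and 4 subunits of gamma-secretase, Psen2, Ncstn, Aph1a and Psenen. All 9 were found among the 24062 genes of the count table, and all 9 passed the filter on low counts, which kept 15440 genes. The list is one of symbols and has no threshold on a measured value, but it was drawn up with earlier results of these data known.

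App encodes a membrane protein, abundant in neurons, that is cut along competing routes. Adam10 cuts within the amyloid beta stretch, so that no amyloid beta can form, whereas Bace1 makes the cut that starts amyloid beta, and the gamma-secretase complex then releases the fragment from the membrane. Aplp1 and Aplp2 are App relatives that the same secretases cut but that lack the amyloid beta stretch. Tau, the protein that is mutated in these mice, forms the other hallmark lesion of Alzheimer's disease.

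The study sequenced total RNA of the cortex from 9-month-old mice, with 1 library per mouse and 3 mice in each of 4 groups. WT mice carried neither change. Tia1+/- mice had 1 knockout allele of Tia1, an RNA-binding protein of stress granules, from a knockout line kept on C57BL/6J. PS19 mice (P301S Tia1+/+), a line of mixed B6;C3 origin, expressed human tau with the P301S mutation from the prion protein promoter, which is active throughout the nervous system and not in the cortex alone. P301S Tia1+/- mice carried the transgene together with the knockout allele. By the study's methods the 2 lines were crossed and their offspring bred on, so that PS19 and P301S Tia1+/- mice were littermates on the same mixed background. For the Tia1+/- and P301S Tia1+/- mice the sample titles and the entries on genotype contradict each other, with the names exchanged. The titles were followed, and if the entries are right, the values of these groups exchange places.

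The libraries held between 11978962 and 19146484 counts. Reads of Xist, which is transcribed in female cells, numbered 0 to 5 in WT and 6 to 13 in PS19 libraries but 3304 to 5693 in Tia1+/- and 4351 to 5324 in P301S Tia1+/- libraries, and 4 Y-linked genes showed the reverse, with at most 3 counts per gene in each of the last 6. Sex and the Tia1 label therefore cannot be told apart in these libraries, although the study's methods name male mice. The study itself reads these differences as regulation of the genes by Tia1. It also reports higher Xist and lower Y-linked transcripts in separate Tia1+/- males. Summed levels of 10 olfactory bulb markers exceeded 700 counts per 1000000 (CPM) in 4 libraries, WT replicate 1 and all 3 P301S Tia1+/- libraries, where they lay between 754 and 1204 CPM. In the other 8 they lay between 9.51 and 175 CPM. The 5 striatal markers in the table summed to 927 CPM in Tia1+/- replicate 3 and to between 58.7 and 155 CPM elsewhere, and 7 markers of cortical excitatory neurons were above 0 in every library. WT replicate 1 and Tia1+/- replicate 3 therefore stood apart from the rest of their groups.

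The targeted genes did not settle the labels, and groups are named by the titles throughout. Tia1 measured 82.0 ± 10.3 CPM in WT and 68.0 ± 10.3 CPM in the libraries labelled Tia1+/- (SD, n = 3), a log2 fold change of -0.27 (adjusted p = 0.239). In the libraries labelled P301S Tia1+/- it measured 74.7 ± 2.76 CPM beside 73.5 ± 3.87 CPM in PS19, so that no reduction was seen there (log2 fold change 0.022, adjusted p = 0.934). Mouse Mapt, the tau gene, measured 346 ± 81.2 CPM in WT, 453 ± 12.2 CPM in PS19, 434 ± 80.8 CPM in Tia1+/- and 349 ± 11.2 CPM in P301S Tia1+/- libraries. Prnp, whose promoter drives the transgene, measured 1638 ± 278, 2100 ± 73.0, 1527 ± 478 and 1480 ± 67.6 CPM in that order. On both genes the libraries labelled P301S Tia1+/- lay below every PS19 library and overlapped WT. Between P301S Tia1+/- and PS19, 38.5% of all genes did not overlap. None of these differences passed the test, and how many reads of the human transgene fall on these mouse genes is not given in the sources used here.

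To show the control regions of the precursor family, the 250 bases before the RefSeq start of each gene were read on the gene's strand from GRCm38.p6. A window was found for 8 of the 9 genes. The App window lies at chr16:85173708-85173957, the Aplp1 window at chr7:30445583-30445832 and the Aplp2 window at chr9:31211849-31212098, all 3 on the minus strand. Capitals mark GC boxes, the letters GGGCGG or, read on the other strand, CCGCCC.

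App: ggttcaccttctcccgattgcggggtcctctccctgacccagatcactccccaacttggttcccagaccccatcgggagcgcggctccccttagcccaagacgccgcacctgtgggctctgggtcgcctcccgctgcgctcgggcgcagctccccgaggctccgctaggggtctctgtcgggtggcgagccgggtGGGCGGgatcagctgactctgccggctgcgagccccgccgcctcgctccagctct

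Aplp1: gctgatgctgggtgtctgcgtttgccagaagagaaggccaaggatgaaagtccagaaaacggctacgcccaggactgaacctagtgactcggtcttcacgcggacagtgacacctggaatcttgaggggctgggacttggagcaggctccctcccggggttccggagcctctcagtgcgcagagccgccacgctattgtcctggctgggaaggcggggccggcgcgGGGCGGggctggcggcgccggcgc

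Aplp2: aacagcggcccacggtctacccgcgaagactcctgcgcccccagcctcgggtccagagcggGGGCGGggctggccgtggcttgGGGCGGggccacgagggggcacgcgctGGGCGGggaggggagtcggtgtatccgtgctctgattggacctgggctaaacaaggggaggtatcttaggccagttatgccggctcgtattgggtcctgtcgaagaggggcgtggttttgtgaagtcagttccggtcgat

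The App and Aplp1 windows each held 1 GC box and the Aplp2 window held 3. Of 32851 mouse windows of the same length, 32.7% held at least 1. The letters TATAAA or their reverse TTTATA, the TATA box, were in none of these 3 windows and in 12.4% of all windows. The App window held 23 CG pairs, the Aplp1 window 20 and the Aplp2 window 22, against a median of 6 over all windows.

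The precursor family was the most abundant and the secretases were expressed at lower levels. Per kilobase of the median coding transcript, App measured 372 ± 78.5 CPM per kb (SD, n = 12 libraries) and ranked 92 of 13926 genes with a known length. Aplp1 measured 238 ± 25.5 CPM per kb and Aplp2 162 ± 8.55 CPM per kb. Thus App made up 47.7% of the family's transcripts, Aplp1 31.0% and Aplp2 21.3% by this measure. Of the secretase genes, Psenen measured 37.8 ± 2.03, Adam10 23.1 ± 2.12, Bace1 22.8 ± 1.51, Aph1a 17.8 ± 1.89, Ncstn 14.7 ± 1.39 and Psen2 6.27 ± 0.858 CPM per kb. In this order the ranges over libraries overlapped between App and Aplp1, Adam10 and Bace1, Bace1 and Aph1a, and Aph1a and Ncstn. They did not overlap between Aplp1 and Aplp2, Aplp2 and Psenen, Psenen and Adam10, or Ncstn and Psen2.

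**Figure D1:**
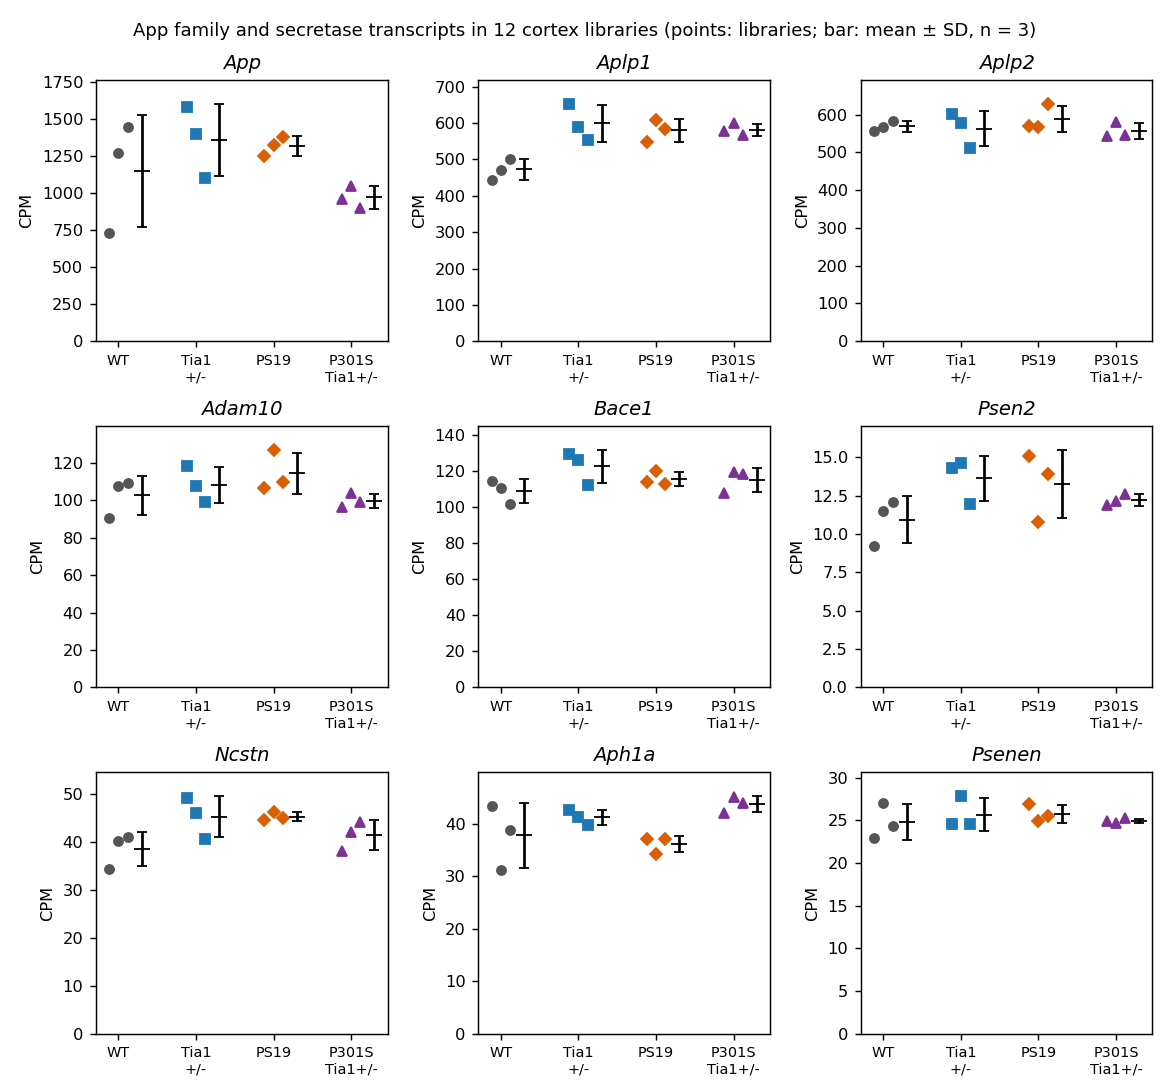
Counts per 1000000 (CPM, vertical axes from 0) of the 9 genes in the 12 libraries, by genotype, with the mean ± SD of 3 libraries beside the points. App ranges from 727 to 1581 CPM with WT replicate 1 lowest, and the 3 WT libraries lie below all others for Aplp1 only.

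None of the 9 genes passed an adjusted p of 0.05 in any comparison of 2 groups, in the interaction or in the test of any difference among the 4 groups (edgeR's quasi-likelihood F test, with Benjamini-Hochberg adjustment over 15440 genes). Few genes of any kind did, so this count of 0 lies close to the background. The share of all genes called was 0% for PS19 against WT, 0.24% for P301S Tia1+/- against PS19, 0.712% for Tia1+/- against WT, 0% for P301S Tia1+/- against Tia1+/-, 1.31% for P301S Tia1+/- against WT and 0.0712% for PS19 against Tia1+/-. For the interaction it was 0.00648% and for any difference 0.395%. At an unadjusted p under 0.05, 2 members passed between PS19 and WT (16.3% of all genes did), 1 between P301S Tia1+/- and PS19 (19.3%), 2 between Tia1+/- and WT (19.1%), 1 between P301S Tia1+/- and Tia1+/- (15.6%), 1 between P301S Tia1+/- and WT (18%), 0 between PS19 and Tia1+/- (4.81%), 3 in the interaction (22.9%) and 1 in the test of any difference (22.2%). DESeq2 called 1 member, Aplp1, in each of the 3 comparisons with WT, where it called 2.77% of all genes for PS19, 6.34% for Tia1+/- and 7.46% for P301S Tia1+/- mice.

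Most values of the members were above 0 in both single mutants against WT, and below 0 in P301S Tia1+/- mice against either single mutant. The median log2 fold change of the 9 was 0.16 for PS19 against WT and 0.17 for Tia1+/- against WT, with 8 of 9 values above 0 in each (49% and 50.7% of all genes were above 0), and these comparisons share the WT libraries. For P301S Tia1+/- it was -0.08 against PS19, with 7 of 9 below 0 (48.5% of all genes), and -0.09 against Tia1+/-, with 8 of 9 below 0 (48.9%). The median of all genes was -0.0066, 0.0057, 0.0097 and 0.0064 in the same 4 comparisons. These medians carry no test. Regional markers moved in the same comparisons. All 10 olfactory bulb markers were lower in both single mutants than in WT, with median log2 fold changes of -5.72 in PS19 and -3.03 in Tia1+/- mice, and all 10 were higher in P301S Tia1+/- than in PS19 (6.34) and Tia1+/- mice (3.62). Of the 7 excitatory neuron markers, 7 were lower in P301S Tia1+/- than in PS19 (median -0.83) and 6 than in Tia1+/- mice (-0.86). Other neuronal markers did not follow them. All 3 inhibitory neuron markers were higher in P301S Tia1+/- than in PS19 (median 0.86), and 1 of 3 was higher than in Tia1+/- mice (-0.05). Of 5 markers of all neurons, 2 were higher and 3 lower in each of these comparisons (medians -0.08 and -0.13). The part of the olfactory bulb markers in the members' values was followed for single genes in a fit with their level as a covariate. That fit cannot separate bulb level from genotype where the level did not overlap between the groups compared.

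**Figure D2:**
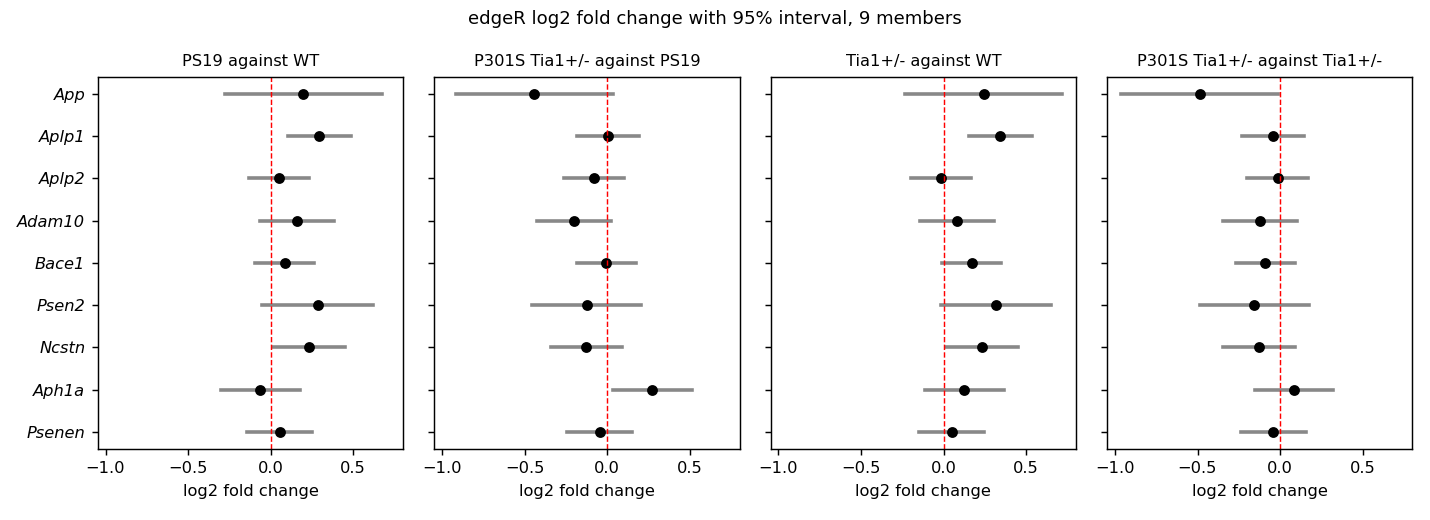
Log2 fold change (horizontal axis) with its 95% interval for each of the 9 genes in 4 comparisons of genotypes. The interval of App is the widest in all 4 panels, and Aplp1 lies above 0 against WT in both single mutants.

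App, the precursor of amyloid beta, varied most among the 9. The gene spans chr16:84949685-85173766 on the minus strand of GRCm38, the build of all positions given here. It measured 727, 1272 and 1446 CPM in WT, 1581, 1396 and 1098 CPM in Tia1+/-, 1248, 1324 and 1377 CPM in PS19, and 961, 1049 and 899 CPM in P301S Tia1+/- libraries. The P301S Tia1+/- libraries lay below every PS19 and every Tia1+/- library, whereas WT spanned the range from the lowest of all 12 to one of the highest. The highest library exceeded the lowest 2.18-fold, compared with 1.21-fold for Psenen and 1.23-fold for Aplp2.

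App was lower by 0.44 on the log2 scale in P301S Tia1+/- than in PS19 mice, with a 95% interval of the log2 fold change from -0.92 to 0.035 and an adjusted p of 0.289 in edgeR's test. Such separation was common in this comparison, since 38.5% of all genes did not overlap between the groups. Against Tia1+/- mice the log2 fold change was -0.49 (adjusted p = 0.311), and 26% of all genes did not overlap. The interaction, (P301S Tia1+/- minus PS19) minus (Tia1+/- minus WT), was -0.68 (SE 0.31, adjusted p = 0.212). In the fit of the 6 PS19 and P301S Tia1+/- libraries alone, in which the scattered WT and Tia1+/- libraries do not enter the estimate of the spread, App passed with an adjusted p of 0.00571, in a fit that called 20.1% of all genes. It also passed against PS19 (log2 fold change -0.47, adjusted p = 0.00246) and against Tia1+/- mice (-0.63, adjusted p = 0.000651) without WT replicate 1 and Tia1+/- replicate 3, where 22.9% and 23.4% of all genes were called. This removal was chosen after seeing the data. The removed libraries held the lowest App of their groups, so these calls are not separate support.

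The order of App in the libraries moved with the regional markers. The 4 libraries with over 700 CPM of olfactory bulb markers held between 727 and 1049 CPM of App and the other 8 between 1098 and 1581 CPM, without overlap. No other member separated in this way, but 3 of these 4 libraries are the whole P301S Tia1+/- group. Bulb level and genotype therefore cannot be told apart here. The share of all genes that separated in this way was not counted. The line of 700 CPM lies in the gap between the observed bulb levels of 175 and 754 CPM. The 7 markers of cortical excitatory neurons summed to 645 CPM in WT replicate 1, 818 to 988 CPM in P301S Tia1+/- libraries, 448 CPM in Tia1+/- replicate 3 and 1096 to 1361 CPM in the others, and these 5 libraries were also the 5 with the least App. With the olfactory bulb markers as a covariate, the log2 fold change of App in P301S Tia1+/- mice turned to 0.66 against PS19 (adjusted p = 0.0746), 0.44 against Tia1+/- (adjusted p = 0.168) and 0.95 in the interaction (adjusted p = 0.0751). The covariate, the mean log2 CPM of these markers, was 5.66 to 6.01 in P301S Tia1+/- but -0.68 to 0.29 in PS19 libraries. In Tia1+/- libraries it was -0.31, -0.30 and 2.95. It did not overlap between P301S Tia1+/- and either single mutant, so this fit cannot separate bulb level from genotype. In tissue RNA, the regions that were sampled, the number of cells of a type and the RNA per cell cannot be told apart.

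**Figure D3:**
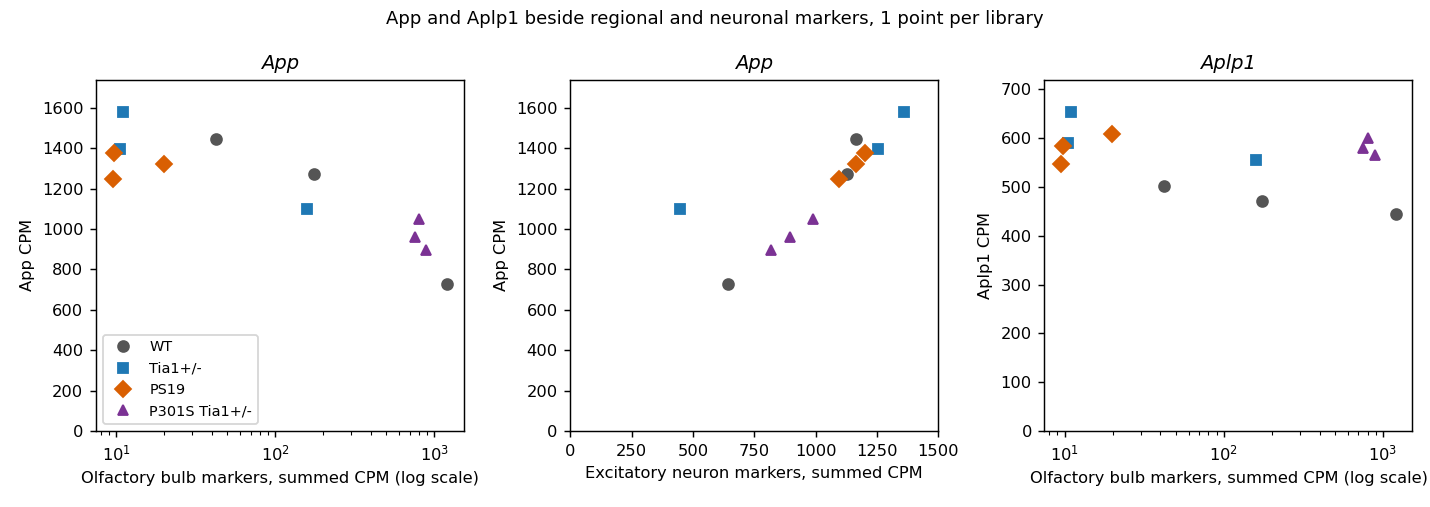
App and Aplp1 in CPM (vertical axes from 0) against the summed CPM of 10 olfactory bulb markers (log scale) or of 7 cortical excitatory neuron markers, with 1 point per library and a symbol per genotype. The 4 libraries with 754 to 1204 CPM of bulb markers hold the 4 lowest App values, whereas for Aplp1 the 3 P301S Tia1+/- libraries among them lie with the PS19 libraries.

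The genes whose levels followed App most closely over the 12 libraries were AI593442, 9530082P21Rik and Klhl34, with Pearson's r of 0.985, 0.979 and 0.976 between log2 CPM values. Among the members, App followed Adam10 most closely, with r = 0.836, and ran against Aph1a, with r = -0.452. These values describe 12 libraries that share genotype groups and tissue composition.

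Aplp1, the App relative that is largely restricted to the nervous system, was the member that separated WT from the mutants. It spans chr7:30434982-30445535 on the minus strand. Its level was 444, 472 and 501 CPM in WT, 654, 590 and 554 CPM in Tia1+/-, 547, 609 and 583 CPM in PS19, and 579, 600 and 566 CPM in P301S Tia1+/- libraries. All 9 mutant libraries lay above all 3 WT libraries, and the 3 mutant groups overlapped each other. How many of all genes separated all mutant libraries from WT was not counted. The means were 472 ± 28.3, 599 ± 50.5, 580 ± 30.7 and 582 ± 17.1 CPM (SD, n = 3).

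The log2 fold change of Aplp1 against WT was 0.34 in Tia1+/- (SE 0.086, adjusted p = 0.0821), 0.30 in PS19 (SE 0.086, adjusted p = 0.179) and 0.30 in P301S Tia1+/- mice (SE 0.086, adjusted p = 0.0994), all by edgeR. These 3 values rest on the same WT libraries. Groups did not overlap for 20% of all genes in Tia1+/- against WT, 20.8% in PS19 against WT and 23.2% in P301S Tia1+/- against WT. DESeq2 put the adjusted p at 0.00677, 0.0406 and 0.0248. With the olfactory bulb covariate the log2 fold changes became 0.22 (adjusted p = 0.173), 0.13 (adjusted p = 0.508) and 0.37 (adjusted p = 0.0186) in that order. Aplp1 also had the smallest p among the 9 in the test of any difference among the 4 groups (adjusted p = 0.124), where it ranked 1048 of 15440 genes.

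Between P301S Tia1+/- and PS19 mice the log2 fold change of Aplp1 was 0.0049, with an interval from -0.18 to 0.19, and the interaction was -0.34 (adjusted p = 0.141). The 5 oligodendrocyte markers, which stand for the myelinating cells of white matter, summed to 1598 to 2426 CPM in WT mice, 2836 to 3761 CPM in Tia1+/- mice, 2049 to 3570 CPM in PS19 mice and 2147 to 2403 CPM in P301S Tia1+/- libraries, so that only the Tia1+/- libraries lay wholly above WT. Their part in the level of Aplp1 was not tested.

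Aplp2, the most widely expressed App relative, was among the steadiest members. It spans chr9:31149557-31211815 on the minus strand. It ranged only from 510 CPM in Tia1+/- replicate 3 to 629 CPM in PS19 replicate 3. The group means were 569 ± 14.5 in WT mice, 562 ± 46.7 in Tia1+/- mice, 589 ± 34.7 in PS19 mice and 557 ± 21.3 CPM in P301S Tia1+/- mice (SD, n = 3), and every pair of groups overlapped. Its log2 fold changes ran from -0.08 in P301S Tia1+/- against PS19 to 0.07 in PS19 against Tia1+/-.

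Adam10, the main alpha-secretase of neurons (chr9:70678997-70780229, plus strand), measured 90.7, 108 and 109 CPM in WT, 118, 107 and 99.2 CPM in Tia1+/-, 107, 127 and 110 CPM in PS19, and 96.6, 104 and 98.9 CPM in P301S Tia1+/- libraries. The P301S Tia1+/- libraries lay below the PS19 libraries, in a comparison in which 38.5% of all genes did not overlap, and overlapped the other groups. The log2 fold change against PS19 was -0.20 (SE 0.10, adjusted p = 0.309), and it turned to 0.10 (adjusted p = 0.749) with the olfactory bulb markers as a covariate.

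Bace1, the beta-secretase (chr9:45838580-45864399, plus strand), measured 114, 111 and 102 CPM in WT, 129, 126 and 112 CPM in Tia1+/-, 114, 120 and 112 CPM in PS19, and 107, 119 and 118 CPM in P301S Tia1+/- libraries. All 6 pairs of groups overlapped. Its largest log2 fold change was 0.17, in Tia1+/- against WT (95% interval -0.0090 to 0.35), and Tia1+/- replicate 1 was the highest library. Of its exonic bases, 15.4% are shared with Rnf214 on the opposite strand, and the strand setting of the counting is not given in the sources used here.

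No gamma-secretase subunit passed the test in any comparison. Ncstn, the large subunit that holds substrates (chr1:172066013-172082795, minus strand), measured 34.3, 40.1 and 40.9 CPM in WT, 49.1, 46.0 and 40.6 CPM in Tia1+/-, 44.6, 46.2 and 44.9 CPM in PS19, and 38.0, 42.0 and 44.1 CPM in P301S Tia1+/- libraries. The PS19 libraries lay above all WT and all P301S Tia1+/- libraries. Of all genes, 20.8% did not overlap between PS19 and WT and 38.5% between P301S Tia1+/- and PS19. The log2 fold change against WT was 0.23 in PS19 (adjusted p = 0.279) and 0.23 in Tia1+/- mice (adjusted p = 0.229), and the interaction was -0.36 (adjusted p = 0.163). With the olfactory bulb covariate these values became -0.0028, 0.053 and 0.16. Ncstn shares 4.91% of its exonic bases with Copa on the opposite strand.

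Aph1a, the scaffold subunit (chr3:95893969-95898288, plus strand), was the member whose P301S Tia1+/- libraries all lay above the PS19 libraries. It measured 43.4, 31.1 and 38.8 CPM in WT, 42.6, 41.2 and 39.8 CPM in Tia1+/-, 37.0, 34.3 and 37.0 CPM in PS19, and 42.0, 45.1 and 44.0 CPM in P301S Tia1+/- libraries. The PS19 libraries lay below all Tia1+/- and all P301S Tia1+/- libraries, and WT spanned both. Between P301S Tia1+/- and PS19, 38.5% of all genes did not overlap. The log2 fold change of P301S Tia1+/- against PS19 was 0.27 (SE 0.11, adjusted p = 0.212). In the fit of these 6 libraries alone, which called 20.1% of all genes, the adjusted p was 0.0328. With the olfactory bulb covariate the log2 fold change was 0.18 (adjusted p = 0.643). The log2 fold change of PS19 against Tia1+/- mice was -0.19 (adjusted p = 0.989), a comparison in which 12.4% of all genes did not overlap. Aph1a shares 12.9% of its exonic bases with Car14 on the opposite strand.

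Psen2, one of the alternative catalytic subunits (chr1:180227004-180263438, minus strand), was the least abundant member, with 115 to 291 counts per library. It measured 9.20, 11.5 and 12.1 CPM in WT, 14.3, 14.6 and 11.98 CPM in Tia1+/-, 15.1, 10.8 and 13.9 CPM in PS19, and 11.9, 12.2 and 12.6 CPM in P301S Tia1+/- libraries. All pairs of groups overlapped, and the largest log2 fold change was 0.32, in Tia1+/- against WT (95% interval -0.016 to 0.65). Psenen, the small subunit that completes the complex (chr7:30561863-30563627, minus strand), ranged from 23.0 to 27.9 CPM, and its log2 fold changes lay between -0.05 and 0.06 in the 6 pairs of groups. Of its exonic bases, 9.33% are shared with U2af1l4 on the opposite strand.

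Ratios within a library do not depend on the scaling between libraries, but they can still differ with the regions that were sampled. App made up 51.4 ± 8.14% of the App, Aplp1 and Aplp2 counts in WT mice, 53.7 ± 2.59% in Tia1+/- mice, 53.0 ± 0.218% in PS19 mice and 46.0 ± 1.19% in P301S Tia1+/- mice (SD, n = 3). Aplp1 made up 22.0 ± 3.27%, 23.9 ± 1.49%, 23.3 ± 0.930% and 27.6 ± 0.645% in the same order, and Aplp2 26.6 ± 4.88%, 22.4 ± 1.22%, 23.7 ± 0.868% and 26.4 ± 0.628%. The 3 P301S Tia1+/- libraries had a higher Aplp1 share than every other library, from 26.9% to 28.2%, and the next highest were WT replicate 1 with 25.7% and Tia1+/- replicate 3 with 25.6%. These 5 libraries were also the 5 with the lowest summed level of the excitatory neuron markers.

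Among the 4 groups the Aplp1 share gave a p of 0.0360 in an exact permutation test of the F statistic over 369600 assignments, which became 0.144 after adjustment over the 4 ratios tested. For the App and Aplp2 shares the adjusted exact p was 0.241 each. Bace1 counts per 100 Adam10 counts were 107 ± 16.9 in WT mice, 113 ± 3.81 in Tia1+/- mice, 101 ± 6.38 in PS19 mice and 115 ± 4.26 in P301S Tia1+/- mice, with an adjusted exact p of 0.330. A pair of groups with 3 libraries each could not give a p below 0.10 by permutation and was not tested. Without WT replicate 1, the adjusted exact p was 0.00909 for the App share, 0.00208 for the Aplp1 share, 0.00909 for the Aplp2 share and 0.0203 for Bace1 per Adam10. Leaving out any other single library gave an adjusted exact p of at least 0.169, 0.114, 0.114 and 0.200 in that order. WT replicate 1 was the only library outside the P301S Tia1+/- group with over 700 CPM of olfactory bulb markers. The p values without WT replicate 1 therefore cannot separate bulb level from genotype. The shares are parts of the same sum, so they are not independent of each other. WT replicate 1 alone held 42.1% App and 126 Bace1 counts per 100 Adam10 counts, against 55.0% and 57.1% App and 103 and 93.0 Bace1 counts in the other WT libraries.

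**Figure D4:**
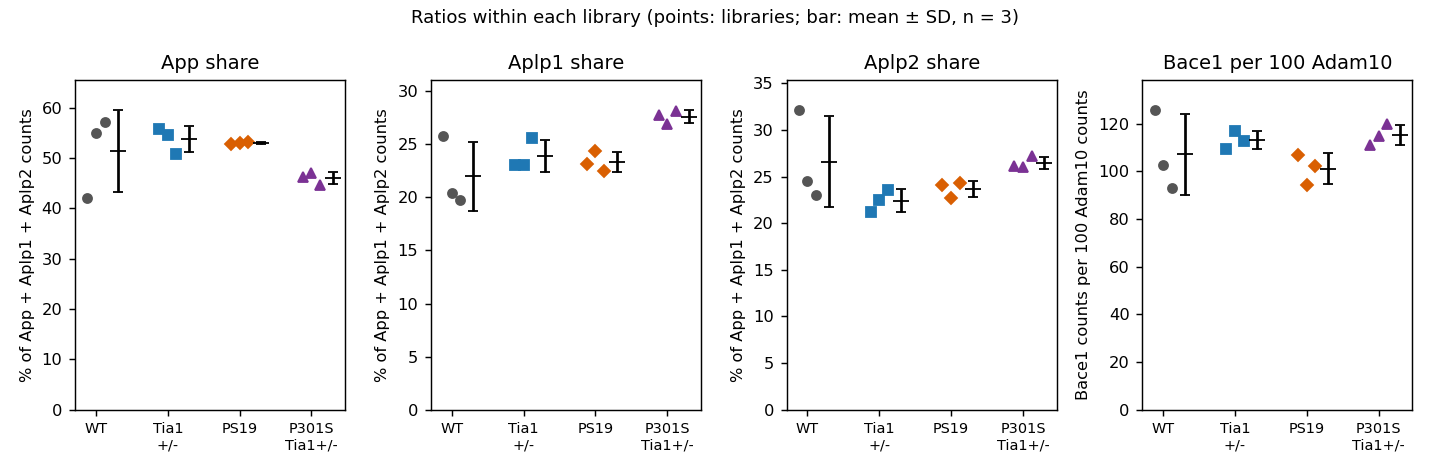
Shares of App, Aplp1 and Aplp2 in their summed counts (%) and Bace1 counts per 100 Adam10 counts in each library, by genotype, with the mean ± SD of 3 libraries. The P301S Tia1+/- libraries lie between 26.9% and 28.2% for the Aplp1 share, above all others, and WT replicate 1 stands away from the other WT libraries in all 4 panels.

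The wider pathway was followed in a list of 53 genes, of which all 53 were tested and 0 passed the adjusted threshold in any comparison. At an unadjusted p under 0.05, 7 of 53 passed between PS19 and WT, 6 of them higher, beside 16.3% of all genes. Between P301S Tia1+/- and PS19 14 passed, with 7 higher and 7 lower (19.3% of all genes), and between Tia1+/- and WT 8, with 4 higher and 4 lower (19.1%). Between P301S Tia1+/- and Tia1+/- mice 16 passed, with 6 higher and 10 lower (15.6%), between P301S Tia1+/- and WT 9 (18%) and between PS19 and Tia1+/- mice 3 (4.81%). The interaction had the most, with 20 of 53, of which 9 were higher and 11 lower, beside 22.9% of all genes. Of the 12 other substrates of the secretases, 8 passed at that level in the interaction, 7 of them lower, and the median log2 value of the 12 was -0.77. In the same interaction all 7 excitatory neuron markers were lower, also with a median of -0.77, and all 10 olfactory bulb markers were higher, with a median of 9.61. The part of these markers in the values of the substrates was not tested.

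Within each role the gene with the smallest p in the test of any difference is given. L1cam, a cell adhesion molecule that is cut by the same secretases, measured 75.4 ± 17.9 CPM in WT mice, 116 ± 7.37 in Tia1+/- mice, 116 ± 10.4 in PS19 mice and 78.5 ± 10.7 in P301S Tia1+/- mice (SD, n = 3). Its interaction was -1.19 on the log2 scale (SE 0.23, adjusted p = 0.0608). Clu, a chaperone that binds amyloid beta outside cells, measured 433 ± 88.2, 513 ± 20.3, 647 ± 117 and 440 ± 3.36 CPM in the same order of groups, with a log2 fold change of 0.58 in PS19 against WT (adjusted p = 0.165) and of -0.55 in P301S Tia1+/- against PS19 (adjusted p = 0.117).

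Itm2c, a membrane protein that inhibits the processing of App, measured 669 ± 26.5, 839 ± 153, 839 ± 33.6 and 907 ± 18.8 CPM, so that WT was lowest, as for Aplp1, and its log2 fold change in P301S Tia1+/- against WT was 0.44 (adjusted p = 0.0756). Bace2, the close relative of Bace1, measured 4.26 ± 2.79, 4.46 ± 1.09, 3.49 ± 0.264 and 8.53 ± 1.75 CPM, with a log2 fold change of 1.29 in P301S Tia1+/- against PS19 (adjusted p = 0.130). Picalm, which acts in endocytosis of App, measured 246 ± 20.8, 222 ± 14.5, 239 ± 11.7 and 203 ± 9.93 CPM, with a log2 fold change of -0.27 in P301S Tia1+/- against WT (adjusted p = 0.129).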

How the data were processed

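Cortex RNA of 12 mice was analysed. The authors aligned paired-end reads of a stranded total RNA kit to mm10 with Bowtie and TopHat (TopHat2 2.0.6 in the submitters' processing notes) and deposited raw counts per gene symbol from featureCounts, without normalization. The annotation and the strand setting are not given in the sources used here. Libraries were grouped by their titles.

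Differences were tested in R 4.3.3 with edgeR 4.0.16, using its quasi-likelihood F test after TMM scaling and filterByExpr (15440 of 24062 genes kept). The fit held all 12 libraries and a mean per group, p values were adjusted by Benjamini-Hochberg over all tested genes, and the threshold was 0.05. CPM are TMM-scaled counts per 1000000. Lengths and positions came from GENCODE M21 (GRCm38), with the median coding transcript as the length, and promoters from RefSeq (GRCm38.p6). The interaction was (P301S Tia1+/- minus PS19) minus (Tia1+/- minus WT). Ratios were tested by exact permutation. The scripts were tested on simulated data.

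All 9 members were named, and of the 53 pathway genes those past the threshold and, per role, the one with the smallest p in the test of any difference. The rule also named the 3 genes with the highest Pearson's r of log2 CPM for App, Aplp1 and Bace1, and those for Aplp1 and Bace1 are not reported here. Members and lists were chosen with earlier results of these data known. The edgeR p values rest on the spread between mice within groups (3 mice per group), pooled over the groups for each gene. The intervals do not cover other error. Same-number libraries of different groups were checked for pairing. All 3 pairs correlated above 0.1 only between Tia1+/- and P301S Tia1+/- (r from 0.123 to 0.240), and for these groups a fit of their 6 libraries, blocked by number, was added after seeing the data. Alternatives were the size factors of DESeq2 1.42.0, its own tests, no filter, at least 10 counts in every library, the replicate block, an olfactory bulb covariate, only the libraries compared, counts per base for the ratios and each library left out. Leaving out WT replicate 1 and Tia1+/- replicate 3 together was chosen after seeing the data.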

Additional observations from a re-analysis of the deposited data

How the results depend on the processing

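The count of members past the threshold was 0 throughout with DESeq2's size factors, without a filter, with at least 10 counts in every library and with the replicate block. DESeq2's own tests called 1 member (Aplp1) in PS19, Tia1+/- and P301S Tia1+/- against WT and 1 in the test of any difference (11.8% of all genes were called). The fit of only the 6 libraries compared called 2 in P301S Tia1+/- against PS19 (App and Aph1a), with 20.1% of all genes. The olfactory bulb covariate called 1 (Aplp1) in P301S Tia1+/- against WT (8.97% of all genes) and 1 in the test of any difference (14.3%). Leaving out 1 library gave 0 to 1 in P301S Tia1+/- against Tia1+/- mice, where App was called without WT replicate 1 (adjusted p = 0.0475, 6.11% of all genes called), and 0 in the other comparisons. Without WT replicate 1 and Tia1+/- replicate 3, an alternative chosen after seeing the data, 1 member was called in P301S Tia1+/- against PS19, 1 against Tia1+/-, 3 against WT (App, Aplp1 and Aph1a), 2 in the interaction (App and Aplp1) and 2 in any difference, beside 22.9%, 23.4%, 25.8%, 13.5% and 29.3% of all genes, and the adjusted exact p of the App, Aplp1 and Aplp2 shares and of Bace1 per Adam10 was 0.00254, 0.00254, 0.00487 and 0.0403. With 1 library left out these 4 values ranged from 0.00909 to 0.484, 0.00208 to 0.484, 0.00909 to 0.484 and 0.0203 to 0.591. The lowest values came without WT replicate 1. Its removal leaves bulb markers over 700 CPM in P301S Tia1+/- libraries only, so bulb level and genotype cannot be told apart in these ratios.

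The olfactory bulb covariate turned the direction of 8 of the 14 log2 fold changes with an unadjusted p under 0.05 or groups that did not overlap. App became 0.66 in P301S Tia1+/- against PS19, 0.44 against Tia1+/- and 0.95 in the interaction, Ncstn became -0.0028 in PS19 against WT, 0.22 in P301S Tia1+/- against PS19 and 0.16 in the interaction, Adam10 became 0.10 in P301S Tia1+/- against PS19, and Aplp1 became 0.021 in the interaction. The cause was not tested. In the pairs of groups named here the covariate did not overlap between the groups, so the fit cannot separate bulb level from genotype. Aplp1 stayed above 0 against WT in all 20 alternatives for each mutant, between 0.13 and 0.35 in PS19, 0.22 and 0.40 in Tia1+/- and 0.24 and 0.37 in P301S Tia1+/- mice.

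The replicate numbers did not pair the libraries over all groups, since 7 of 18 same-number pairs correlated above 0.1 (median -0.060). The replicate block left 0 members called, and the adjusted p of the ratios at 0.324, 0.324, 0.324 and 0.396. Within the 6 Tia1+/- and P301S Tia1+/- libraries, blocked by number, App had a log2 fold change of -0.48 (adjusted p = 0.0946), and the block changed no call. Psen2, with 115 to 291 counts per library, had the least depth.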
